A study of Mus musculus with 11 samples.

Results

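The genes described here are 41 genes of glycolysis and of the response to low oxygen in mouse embryonic stem cells (ESCs). They were chosen by symbol as glycolytic enzymes, glucose and lactate transporters, regulators of glycolytic flux, the hypoxia-inducible factor Hif1a with its targets, and the arrestin-domain genes Txnip and Arrdc4. The rule names symbols and no measured value, though the genes were picked with earlier results of these data known. A gene counted as measured where at least 1 transcript cluster, the array's unit for a gene or part of a gene, carried its symbol and no other. On this basis 38 of the 41 genes were measured, among 19935 genes in all. Gapdh had only clusters that carry several symbols, no cluster carried the symbols Gpi1 or Eno1, and these 3 genes were not analysed here. No filter on low values was applied, so all 38 entered every test.

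Control cells were the wild-type line E14, and the mutant cells were labelled Bmpr1a-/-, that is, without Bmpr1a, through which cells sense bone morphogenetic proteins. Both genotypes were profiled in ESC medium and after 3 days of culture in N2B27, which has no serum and lets ESCs leave the pluripotent state. The groups were control in ESC medium (n = 3), Bmpr1a-/- in ESC medium (n = 2, numbered 2 and 3), control in N2B27 (n = 3) and Bmpr1a-/- in N2B27 (n = 3). The mutant lines C1-6, Fr124 and Fr88 appear in the labels, but the line on each array is not given. Genotype and cell line therefore cannot be told apart, since all control arrays came from E14. Whether replicate arrays came from independent cultures is not stated, and the p-values cover only array-to-array spread, possibly technical. RNA was taken from whole cultures, and fewer cells of a type and less RNA per cell cannot be told apart.

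Glycolysis splits glucose into pyruvate in the cytosol, and lactate dehydrogenase turns pyruvate into lactate, which monocarboxylate transporters export. Pluripotent stem cells are known for a high rate of glycolysis even in the presence of oxygen. When oxygen falls, prolyl hydroxylases of the Egln family stop marking the HIF1A protein for degradation, and HIF1A then raises transcription of glucose transporters, glycolytic enzymes and the pyruvate dehydrogenase kinases. This switch acts on the protein, so the mRNA of Hif1a is not by itself a measure of HIF activity. Txnip and Arrdc4 encode arrestin-like proteins that restrain glucose uptake, and their transcription follows glucose through the sensor MondoA and its partner Mlx.

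Promoters were available for 35 of the 38 measured genes (RefSeq, GRCm38.p6), and those of Bnip3l, Slc2a3 and Ndrg1 were not analysed here. The core of the HIF response element, ACGTG or GCGTG on either strand, lay within 250 bases before to 50 after a start in 33 of the 35 (94.3%), all but Eno2 and Tpi1. The share was 46.7% over 27025 genes in the table and 52.3% over 17491 coding genes. Many of the genes were chosen as known HIF targets, so this count is a description of the choice. The E-box CACGTG, whose letters also hold the HIF core on both strands, lay in 7 of the 35 (20.0%), namely Arrdc4, Bnip3, Hif1a, Ldha, Pfkfb3, Pfkm and Slc16a1, against 8.09% of all genes and 8.91% of coding genes. The carbohydrate response element bound by MondoA with Mlx, written as CACGNG, any 5 bases and CNCGNG, was found only in Txnip among the 35, and in 0.426% of all genes and 0.618% of coding genes. A match is a string of letters and not a measured binding site.

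The 250 bases before the start, 5′ to 3′ on the gene's strand, are shown for the 4 genes with the most HIF cores among those that changed with medium in control cells, with the cores in capitals. The promoters lie at chr3:104638414-104638663 on the plus strand (Slc16a1), chr8:45999851-46000100 on the minus strand (Ankrd37), chr11:54100674-54100923 on the plus strand (P4ha2) and chr13:6648772-6649021 on the minus strand (Pfkp).
Slc16a1: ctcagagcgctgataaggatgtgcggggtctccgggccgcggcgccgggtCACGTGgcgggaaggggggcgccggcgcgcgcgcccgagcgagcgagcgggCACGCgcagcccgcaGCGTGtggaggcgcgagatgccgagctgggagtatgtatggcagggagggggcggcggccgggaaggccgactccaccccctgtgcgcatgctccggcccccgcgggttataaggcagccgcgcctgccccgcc
Ankrd37: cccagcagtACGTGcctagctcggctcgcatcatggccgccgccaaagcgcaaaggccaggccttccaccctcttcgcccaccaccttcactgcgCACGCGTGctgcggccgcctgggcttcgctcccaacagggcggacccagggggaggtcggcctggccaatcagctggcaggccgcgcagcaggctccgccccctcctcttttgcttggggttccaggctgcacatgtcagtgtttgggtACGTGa
P4ha2: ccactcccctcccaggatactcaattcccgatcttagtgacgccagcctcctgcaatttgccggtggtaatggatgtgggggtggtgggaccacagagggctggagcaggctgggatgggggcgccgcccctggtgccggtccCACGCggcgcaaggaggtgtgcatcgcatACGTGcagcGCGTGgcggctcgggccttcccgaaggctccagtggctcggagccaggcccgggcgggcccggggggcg
Pfkp: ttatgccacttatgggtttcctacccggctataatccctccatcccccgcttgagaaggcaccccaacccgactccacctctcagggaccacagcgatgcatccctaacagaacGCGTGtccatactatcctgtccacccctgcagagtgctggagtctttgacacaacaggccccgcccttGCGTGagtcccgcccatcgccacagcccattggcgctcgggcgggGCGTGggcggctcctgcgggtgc
These stretches hold 4, 4, 3 and 3 cores. Slc16a1, the lactate and pyruvate transporter, rose in N2B27 in control cells, while the other 3 genes fell. Since 33 of the 35 promoters hold the core, these directions say nothing about the motif.

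The promoters of Txnip and Arrdc4 are shown because both genes were lower in Bmpr1a-/- cells in N2B27. In Txnip (chr3:96557707-96557956, plus strand) the capitals mark the carbohydrate response element, which ends 68 bases before the start. In Arrdc4 (chr7:68749239-68749488, minus strand) they mark the E-box, 187 bases before the start, and this promoter was chosen after the values were seen.
Txnip: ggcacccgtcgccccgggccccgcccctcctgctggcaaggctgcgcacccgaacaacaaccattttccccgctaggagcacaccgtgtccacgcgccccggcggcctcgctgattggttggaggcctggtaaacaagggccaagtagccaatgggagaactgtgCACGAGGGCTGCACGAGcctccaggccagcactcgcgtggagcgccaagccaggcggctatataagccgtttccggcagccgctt
Arrdc4: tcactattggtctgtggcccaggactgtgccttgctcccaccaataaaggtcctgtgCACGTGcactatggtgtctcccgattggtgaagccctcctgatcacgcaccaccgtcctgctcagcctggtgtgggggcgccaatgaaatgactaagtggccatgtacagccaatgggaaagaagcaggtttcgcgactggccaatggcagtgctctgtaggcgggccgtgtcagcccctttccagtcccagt

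The deposited values are on a log2 scale and centred on a baseline of each gene that no label describes. A value can be compared between arrays for the same gene but says nothing of how abundant a transcript is. Precision is limited by how few arrays there are. Differences are log2 differences with their standard error (SE), and folds are their antilogs. Bmpr1a itself differed by -0.27 between mutant and control cells in ESC medium (SE 0.10, adjusted p = 0.145) and was lower in mutant cells in N2B27 (-0.70, SE 0.09, adjusted p = 0.00211). This is a weak check of the labels, because the deleted part of the gene is not stated. All 8 pluripotency markers fell in N2B27 in both genotypes (median -1.84 in control and -2.16 in mutant), and their part in the differences between media was not tested. Fibroblast or feeder-cell markers moved with medium as well. Their mean level went from -0.71 to -0.62 on the mutant arrays in ESC medium to -0.04 to 0.37 in N2B27, with 3 of 8 higher (Thy1, Acta2 and Tagln). On the control arrays it was 0.03 to 0.21 and 0.17 to 0.56, with 3 of 8 higher (Thy1, Pdgfrb and Acta2) and Col1a1 lower, and the part of these markers was not tested either. The mutant array numbered 2 in N2B27 stood furthest from its group, with a root mean square deviation of 0.185 over all genes against 0.0774 to 0.155 for the other 10 arrays.

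**Figure D1:**
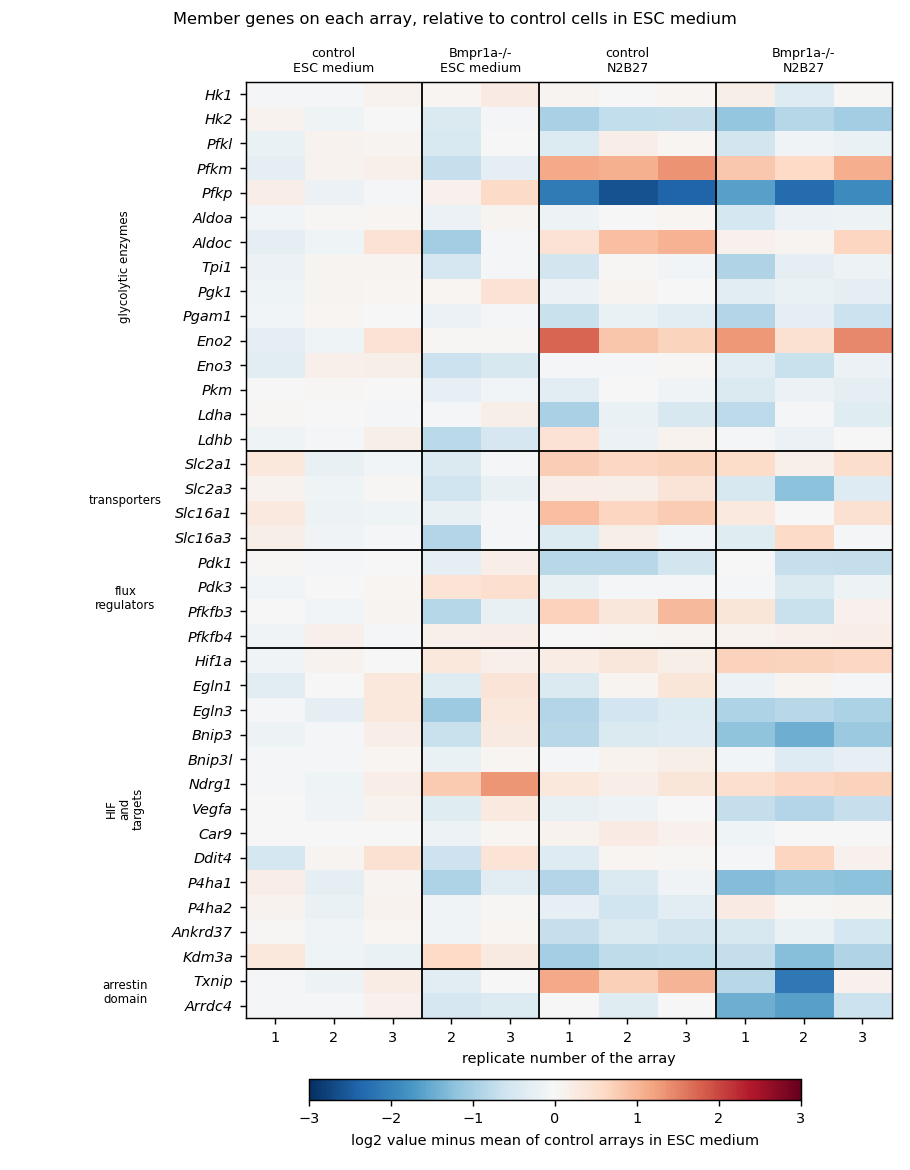
Log2 value of each of the 38 measured genes on the 11 arrays, minus the mean of the 3 control arrays in ESC medium. Columns are arrays, numbered within each group, and rows are ordered by role. Pfkp is low on all 6 arrays in N2B27, and Txnip is high on the 3 control arrays in N2B27 and lowest on mutant array 2.

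The first question was how these genes differ after 3 days in N2B27. A gene was called where its adjusted p, from limma with Benjamini-Hochberg adjustment over all genes, was under 0.05. In control cells 5 of the 38 rose and 6 fell, against 12.8% of all genes higher and 13.3% lower. In mutant cells 4 rose and 9 fell, against 14.9% of all genes higher and 10.3% lower. The share of the 38 called in either direction was thus 28.9% in control and 34.2% in mutant cells, and the median difference was -0.04 in control and -0.19 in mutant cells, against 0.02 and 0.01 over all genes. Pfkm, Slc2a1 and Hif1a rose in both genotypes, and Pfkp, Hk2, Kdm3a and Ankrd37 fell in both. These 7 are 63.6% of the calls in control and 53.8% of those in mutant cells, and none was called in opposite directions. The same overlap was not computed over all genes, so these shares cannot be read as particular to the 38. Calls over all genes moved with the array left out, as given at the end, so shifts in the following counts cannot be read as particular to the 38. Without the mutant array numbered 2 in N2B27, 16 of the 38 were called in mutant cells. Without mutant arrays 2 and 3 in ESC medium in turn, 11 and 9 were called.

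**Figure D2:**
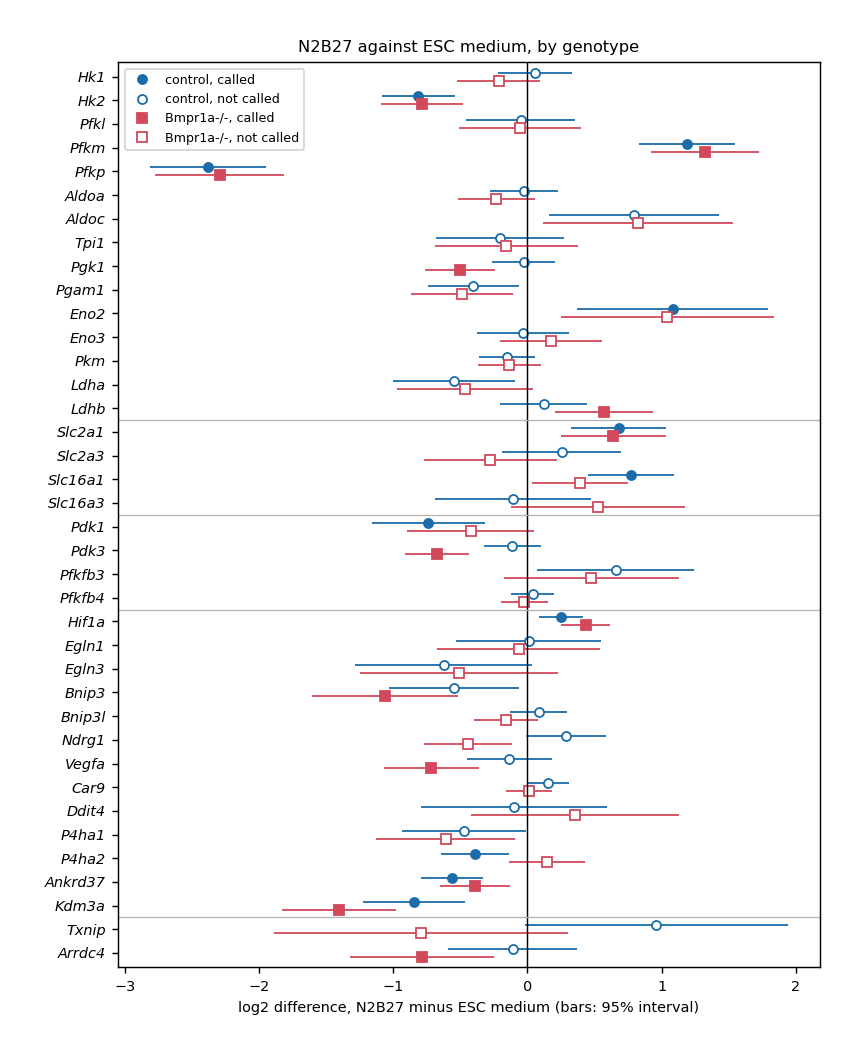
Log2 difference, N2B27 minus ESC medium, for the 38 genes in control (blue circles) and Bmpr1a-/- cells (red squares), with 95% intervals from limma. Filled symbols passed an adjusted p of 0.05. Pfkp lies at -2.38 and -2.29, far below all others.

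The largest changes were those of isoforms of phosphofructokinase, the enzyme of the committed step of glycolysis. Pfkp, the platelet isoform, was at 1.84, 1.45 and 1.61 on the control arrays in ESC medium and at -0.49, -0.99 and -0.77 in N2B27. In mutant cells Pfkp was at 1.75 and 2.19 in ESC medium and at 0, -0.67 and -0.29 in N2B27. The media did not overlap in either genotype, and Pfkp fell 5.21-fold in control (-2.38, SE 0.19, adjusted p = 4.12e-05) and 4.90-fold in mutant cells (-2.29, SE 0.22, adjusted p = 7.43e-05). Pfkm, the muscle isoform, was at -0.86, -0.49 and -0.44 in control and -1.30 and -0.86 in mutant cells in ESC medium. In N2B27 Pfkm was at 0.55, 0.48 and 0.75 in control and 0.22, 0 and 0.50 in mutant cells. Again all arrays in N2B27 lay above those in ESC medium, and Pfkm rose 2.28-fold in control (1.19, SE 0.16, adjusted p = 0.000556) and 2.50-fold in mutant cells (1.32, SE 0.18, adjusted p = 0.000549). The liver isoform Pfkl differed by -0.05 in control and -0.06 in mutant cells, neither called (adjusted p = 0.907 and 0.901). All 4 calls of Pfkp and Pfkm held in every refit, that is with each array of the groups compared left out in turn and under the 7 other settings tried. Which isoform carries most of the activity cannot be read from centred values.

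Hk2, the hexokinase that binds mitochondria and responds to hypoxia, was at 0.55, 0.31 and 0.45 on the control arrays in ESC medium and at -0.54, -0.30 and -0.28 in N2B27. In mutant cells it was at 0 and 0.41 in ESC medium and at -0.71, -0.42 and -0.61 in N2B27. The arrays did not overlap, and Hk2 fell 1.76-fold in control (-0.81, SE 0.12, adjusted p = 0.00105) and 1.72-fold in mutant cells (-0.79, SE 0.14, adjusted p = 0.00213), calls that held in every refit. Its paralog Hk1 differed by 0.06 and -0.21 and was not called. Eno2, the neuronal enolase, was at -0.76, -0.59 and -0.04 in control cells in ESC medium and at 1.27, 0.37 and 0.21 in N2B27. It was at -0.44 on both mutant arrays in ESC medium and at 0.83, 0 and 0.97 in N2B27. All arrays in N2B27 were higher, with array 1 of the control standing well above the others, and Eno2 rose 2.11-fold in control cells (1.08, SE 0.32, adjusted p = 0.0304). The call was lost without control array 1 in N2B27 (0.75, adjusted p = 0.100), without control arrays 1 or 2 in ESC medium (0.93 and 1.02, adjusted p = 0.104 and 0.0909) and with arrays paired by number (adjusted p = 0.0737). In mutant cells the difference in Eno2 was 1.04 (SE 0.36, adjusted p = 0.0579), and Eno2 passed without mutant array 2 in N2B27 (1.34, adjusted p = 0.0126). Eno3, the muscle enolase, differed by -0.03 and 0.18 and was not called.

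At the end of the pathway, Pkm, pyruvate kinase, was at 0.02, 0.07 and 0.03 in control cells in ESC medium and at -0.29, 0.02 and -0.05 in N2B27. In mutant cells Pkm was at -0.20 and -0.03 in ESC medium and at -0.38, -0.12 and -0.25 in N2B27. The media overlapped in both genotypes, and the differences of -0.15 (95% interval -0.36 to 0.06) and -0.14 (-0.37 to 0.10) were not called. Ldha, the lactate dehydrogenase subunit that favours lactate, was at 0.09, 0.07 and 0.02 in control cells in ESC medium and at -0.91, -0.14 and -0.42 in N2B27. On the mutant arrays Ldha was at 0.01 and 0.23 in ESC medium and at -0.72, 0 and -0.31 in N2B27. All arrays in N2B27 were lower, but their spread was wide and the differences missed the threshold, with -0.55 in control (SE 0.20, adjusted p = 0.0757) and -0.46 in mutant cells (SE 0.23, adjusted p = 0.185). Without control array 2 in N2B27 the difference in Ldha passed (-0.73, adjusted p = 0.0313). Ldhb, the subunit that favours pyruvate, was at -0.80 and -0.51 in mutant cells in ESC medium and at -0.05, -0.18 and -0.02 in N2B27. It rose 1.48-fold in mutant cells (0.57, SE 0.16, adjusted p = 0.0271), a call lost without mutant array 2 in ESC medium (0.43, adjusted p = 0.233) and without mutant arrays 1 or 3 in N2B27 (0.55 and 0.54, adjusted p = 0.0626 and 0.0774). In control cells Ldhb was at -0.13, -0.06 and 0.18 in ESC medium and at 0.42, -0.17 and 0.10 in N2B27, where the arrays overlapped (0.12, SE 0.15, adjusted p = 0.664).

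Among the other enzymes Pgk1, phosphoglycerate kinase, fell 1.42-fold in mutant cells (-0.50, SE 0.12, adjusted p = 0.00997) and differed by -0.03 in control cells. Its 3 clusters gave nearly the same differences in mutant cells, -0.51, -0.51 and -0.49, and signals from near-identical copies of Pgk1 cannot be told apart. Pgk1 lies on the X chromosome, where 22.1% of genes were higher in mutant than in control cells in ESC medium and 9.74% in N2B27. The part of the chromosome in the fall of Pgk1 was not tested. The fall was smaller without mutant array 3 in ESC medium (-0.32, adjusted p = 0.112). Aldoc, the aldolase of the nervous system, differed by 0.80 in control (adjusted p = 0.0659) and 0.82 in mutant cells (adjusted p = 0.0900). Pgam1, phosphoglycerate mutase, differed by -0.40 and -0.49 (adjusted p = 0.0802 and 0.0607). Aldoc passed without array 3 of either genotype in ESC medium, at 1.01 in control (adjusted p = 0.0363) and 1.32 in mutant cells (adjusted p = 0.0236). Pgam1 passed in mutant cells without mutant array 2 in N2B27 (-0.64, adjusted p = 0.00905). With control arrays paired by number, Aldoc was called higher (adjusted p = 0.00524) and Pgam1 lower (adjusted p = 0.0211). Aldoa and Tpi1 differed by -0.23 to -0.03 and were not called. Of the 15 enzymes measured, 2 rose and 2 fell in control cells, and 2 rose and 3 fell in mutant cells. The shares called in either direction were 26.7% and 33.3%, against 26.1% and 25.2% of all genes, and were not tested against each other.

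The transporters moved upward where they were called, 2 of 4 in control and 1 of 4 in mutant cells. Over all genes 12.8% and 14.9% were called higher. Slc2a1, the widespread basal glucose transporter, was at -0.06, -0.59 and -0.45 in control and -0.81 and -0.40 in mutant cells in ESC medium. In N2B27 Slc2a1 was at 0.37, 0.26 and 0.31 in control and 0.18, -0.22 and 0.16 in mutant cells. No array in N2B27 lay below one of its genotype in ESC medium, and Slc2a1 rose 1.60-fold in control (0.68, SE 0.16, adjusted p = 0.0100) and 1.56-fold in mutant cells (0.64, SE 0.18, adjusted p = 0.0228). The call in control cells held in every refit. That in mutant cells was lost without mutant array 2 in ESC medium (0.44, adjusted p = 0.230) and without mutant arrays 1 or 3 in N2B27 (0.57 and 0.58, adjusted p = 0.0646 and 0.0725), as well as with the mutant groups fitted alone (adjusted p = 0.0544).

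Slc16a1, which carries lactate and pyruvate across the plasma membrane, was at -0.01, -0.46 and -0.42 in control cells in ESC medium and at 0.61, 0.34 and 0.48 in N2B27. In mutant cells it was at -0.51 and -0.35 in ESC medium and at 0, -0.29 and 0.17 in N2B27. Slc16a1 rose 1.71-fold in control cells (0.77, SE 0.14, adjusted p = 0.00320), and the difference of 0.39 in mutant cells, where arrays did not overlap either, missed the threshold (SE 0.16, adjusted p = 0.113). Without the mutant array numbered 2 in N2B27 it passed (0.51, adjusted p = 0.0306). Slc2a3, the high-affinity glucose transporter of neurons and early embryos, was at 0.34, 0.10 and 0.25 in control cells in ESC medium and at 0.42, 0.40 and 0.63 in N2B27. On the mutant arrays Slc2a3 was at -0.38 and 0 in ESC medium and at -0.24, -0.995 and -0.16 in N2B27. The medium differences of Slc2a3, 0.25 in control and -0.28 in mutant cells, were not called (adjusted p = 0.443 and 0.454). Slc16a3, the lactate exporter of glycolytic cells, differed by -0.11 and 0.52 and was not called (adjusted p = 0.848 and 0.250).

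Pyruvate dehydrogenase kinases inhibit pyruvate dehydrogenase, and with it the flow of pyruvate into the citric acid cycle. Pdk1 was at 0.32, 0.26 and 0.28 in control cells in ESC medium and at -0.55, -0.55 and -0.26 in N2B27. In mutant cells Pdk1 was at 0 and 0.49 in ESC medium and at 0.29, -0.40 and -0.43 in N2B27. It fell 1.67-fold in control cells (-0.74, SE 0.19, adjusted p = 0.0165). Leaving out control arrays 1 or 2 in N2B27 ended the call (-0.69 in both cases, adjusted p = 0.0563 and 0.0549). In mutant cells the media overlapped (-0.42, SE 0.21, adjusted p = 0.196), and without mutant array 1 in N2B27 the difference passed (-0.66, adjusted p = 0.0128). Pdk3 fell 1.60-fold in mutant cells (-0.68, SE 0.11, adjusted p = 0.00124), held in every refit, and differed by -0.11 in control cells (adjusted p = 0.493). Like Pgk1, Pdk3 lies on the X chromosome, whose part in this fall was not tested. Pfkfb3, which makes the allosteric activator of phosphofructokinase, differed by 0.66 in control (adjusted p = 0.0986) and 0.47 in mutant cells (adjusted p = 0.309). With control arrays paired by number, Pfkfb3 was called higher (adjusted p = 0.00991), and in mutant cells it passed without mutant array 2 in N2B27 (0.78, adjusted p = 0.0295). Pfkfb4, another enzyme of this kind, differed by 0.04 and -0.02.

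Of the 13 genes of the HIF branch 1 rose and 3 fell in control cells, and 1 rose and 4 fell in mutant cells. These are 30.8% and 38.5% called in either direction, against 26.1% and 25.2% of all genes, and the difference between those shares was not tested. Slc2a1, which rose, and Hk2 and Pdk1, which fell, are HIF targets too and were counted above. Hif1a was at -0.40, -0.19 and -0.29 in control cells in ESC medium and at -0.07, 0.04 and -0.11 in N2B27. On the mutant arrays it was at 0.02 and -0.15 in ESC medium and at 0.40, 0.38 and 0.33 in N2B27. The arrays did not overlap between media, and the rise was 1.19-fold in control (0.25, SE 0.07, adjusted p = 0.0321) and 1.35-fold in mutant cells (0.43, SE 0.08, adjusted p = 0.00346). The call in mutant cells held in every refit. That in control cells was lost without control arrays 1 or 3 in ESC medium (0.19 and 0.25, adjusted p = 0.119 and 0.0761), without control arrays 1 or 2 in N2B27 (0.26 and 0.20, adjusted p = 0.0662 and 0.120) and when the least variable genes were left out (adjusted p = 0.0565).

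Kdm3a, a histone demethylase induced by HIF, was at 1.00, 0.57 and 0.50 in control and 1.28 and 0.97 in mutant cells in ESC medium. In N2B27 Kdm3a was at -0.33, -0.08 and -0.06 in control and -0.03, -0.60 and -0.21 in mutant cells. The media were clearly apart, and Kdm3a fell 1.80-fold in control (-0.85, SE 0.17, adjusted p = 0.00485) and 2.65-fold in mutant cells (-1.41, SE 0.19, adjusted p = 0.000530), in every refit. Ankrd37, an ankyrin-repeat gene and direct HIF target, was at 0.37, 0.22 and 0.38 in control cells in ESC medium and at -0.38, -0.11 and -0.23 in N2B27. In mutant cells Ankrd37 was at 0.22 and 0.39 in ESC medium and at -0.16, 0.12 and -0.21 in N2B27. It fell 1.48-fold in control (-0.56, SE 0.10, adjusted p = 0.00299), in every refit, and 1.31-fold in mutant cells (-0.39, SE 0.12, adjusted p = 0.0315). The call in mutant cells was lost without mutant arrays 2 or 3 in ESC medium (-0.48 and -0.31, adjusted p = 0.0680 and 0.220) and without mutant arrays 1 or 3 in N2B27 (-0.35 and -0.33, adjusted p = 0.0800 and 0.0998), as well as with the mutant groups fitted alone (adjusted p = 0.0934).

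P4ha2, a collagen prolyl hydroxylase, was at 0.09, -0.23 and 0.08 in control cells in ESC medium and at -0.27, -0.62 and -0.36 in N2B27. It fell 1.31-fold in control cells (-0.39, SE 0.11, adjusted p = 0.0304), though control array 2 in ESC medium and array 1 in N2B27 lay close together. P4ha2 lost its call without control arrays 1 or 3 in ESC medium (-0.34 in both cases, adjusted p = 0.105 and 0.102), without control arrays 2 or 3 in N2B27 (-0.29 and -0.42, adjusted p = 0.110 and 0.0584) and with the control groups fitted alone (adjusted p = 0.0553). In mutant cells P4ha2 was at -0.12 and 0.01 in ESC medium and at 0.22, 0 and 0.05 in N2B27, and the difference of 0.15 was not called. Bnip3, a mitophagy receptor, fell 2.08-fold in mutant cells (-1.06, SE 0.24, adjusted p = 0.00956) and differed by -0.55 in control cells (adjusted p = 0.0979). Vegfa, the angiogenic growth factor, fell 1.64-fold in mutant cells (-0.72, SE 0.16, adjusted p = 0.00824) and differed by -0.14 in control cells. Without mutant array 3 in ESC medium the differences were -0.59 for Bnip3 (adjusted p = 0.0858) and -0.39 for Vegfa (adjusted p = 0.0563). Vegfa also missed the threshold with the mutant groups fitted alone (adjusted p = 0.0528).

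The remaining HIF genes were not called for medium. The prolyl hydroxylases Egln1 and Egln3 differed by 0.01 and -0.62 in control and by -0.07 and -0.51 in mutant cells. Without mutant array 2 in ESC medium the difference of Egln3 in mutant cells was -1.21 (adjusted p = 0.00889). Ndrg1, a stress-response gene, differed by 0.29 in control and -0.44 in mutant cells (adjusted p = 0.157 and 0.0536), and without mutant array 2 in ESC medium the latter passed (-0.71, adjusted p = 0.00962). P4ha1 differed by -0.47 and -0.61, Ddit4, an inhibitor of growth signalling, by -0.10 and 0.35, Car9, a surface carbonic anhydrase, by 0.15 and 0.01, and Bnip3l by 0.08 and -0.16. With control arrays paired by number, Bnip3 (adjusted p = 0.00794) and Egln3 (adjusted p = 0.0179) were called lower and Ndrg1 higher (adjusted p = 0.0295).

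Txnip was at -0.12, -0.22 and 0.17 in control cells in ESC medium and at 1.09, 0.65 and 0.97 in N2B27. In mutant cells Txnip was at -0.38 and -0.04 in ESC medium and at -0.88, -2.21 and 0.08 in N2B27. All control arrays in N2B27 were higher than those in ESC medium, while the mutant arrays in N2B27 spread over more than the whole range of the others. The joint estimate of the spread takes in those mutant arrays, and the difference of 0.96 in control cells missed the threshold (SE 0.44, adjusted p = 0.152). With control arrays paired by number it was called (adjusted p = 0.00357), as it was with the control groups fitted alone (adjusted p = 0.00335). In mutant cells the difference was -0.79 (SE 0.49, adjusted p = 0.311), and without mutant array 3 in N2B27 it passed (-1.34, adjusted p = 0.0286). Without mutant array 2 in N2B27, the lowest, it was -0.19 (adjusted p = 0.688). Arrdc4 was at 0.33, 0.35 and 0.52 in control cells in ESC medium and at 0.40, 0.04 and 0.42 in N2B27, with overlap (-0.11, adjusted p = 0.807). In mutant cells Arrdc4 was at -0.10 and -0.01 in ESC medium and at -1.07, -1.22 and -0.25 in N2B27, and it fell 1.73-fold (-0.79, SE 0.24, adjusted p = 0.0363). Arrdc4 lost its call without mutant arrays 2 or 3 in ESC medium (-0.83 and -0.74, adjusted p = 0.134 and 0.168), without mutant arrays 1 or 2 in N2B27 (-0.68 and -0.60, adjusted p = 0.0996 and 0.0800), with the mutant groups fitted alone (adjusted p = 0.122) and with array weights (-0.34, adjusted p = 0.212).

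Pathway genes outside the 41 were counted in the same fit, where 12.8% of all genes rose and 13.3% fell in control cells and 14.9% rose and 10.3% fell in mutant cells. The counts below describe each list and were not tested against those shares. Of 15 regulators of HIF, 3 rose and 4 fell in control cells and 6 rose and 4 fell in mutant cells. Hif3a, a family member that can oppose HIF1A, rose by 2.18 in control (SE 0.30, adjusted p = 0.000587) and by 1.68 in mutant cells (SE 0.33, adjusted p = 0.00444). Epas1, which encodes HIF2A, changed by -1.09 in control (SE 0.17, adjusted p = 0.00110) and by -1.29 in mutant cells (SE 0.19, adjusted p = 0.000753). Cited2, which competes with HIF for its coactivator, rose by 0.84 and 1.07 (adjusted p = 0.00158 and 0.000686). Thus the mRNAs of 3 genes for HIF alpha subunits moved in different directions in N2B27, Hif1a and Hif3a up and Epas1 down.

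Of 32 other hypoxia-response genes, 3 rose and 12 fell in control cells and 3 rose and 5 fell in mutant cells. The transferrin receptor Tfrc changed by -2.54 in control (SE 0.24, adjusted p = 7.50e-05) and by -1.05 in mutant cells (SE 0.26, adjusted p = 0.0145). Bhlhe41, a circadian repressor, rose by 2.88 and 2.68 (adjusted p = 0.00418 and 0.0106). Ak4, a mitochondrial adenylate kinase, changed by -0.57 and -1.41 (adjusted p = 0.00329 and 4.40e-05). Of 18 other transporters, 3 rose and 2 fell in control cells and 4 rose and 1 fell in mutant cells. The mitochondrial pyruvate carrier Mpc1 changed by -0.94 in control (SE 0.10, adjusted p = 0.000141) and by -1.02 in mutant cells (SE 0.11, adjusted p = 0.000146). The glucose transporter Slc2a12 rose by 1.42 in control (SE 0.18, adjusted p = 0.000329) and by 0.77 in mutant cells (SE 0.20, adjusted p = 0.0162).

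Of 18 other glycolysis genes, 0 rose and 3 fell in control cells and 2 rose and 3 fell in mutant cells. Tigar, a phosphatase that opposes glycolytic flux, changed by -0.76 (adjusted p = 0.000591) and -0.62 (adjusted p = 0.00305), and Fbp2, a gluconeogenic enzyme, by -0.42 (adjusted p = 0.0174) and -1.10 (adjusted p = 0.000172). Of 11 genes around glucose sensing and arrestins, 3 rose and 2 fell in control cells and 5 rose and 2 fell in mutant cells. Mlxip, which encodes MondoA, rose by 0.34 and 0.54 (adjusted p = 0.00477 and 0.000618), while its partner Mlx changed by -0.65 and -0.30 (adjusted p = 0.000119 and 0.0121). Of 10 genes of the pentose phosphate pathway, 4 fell in control cells and 1 rose and 3 fell in mutant cells. Of 29 genes of pyruvate dehydrogenase and the citric acid cycle, 5 rose and 5 fell in control cells and 4 rose and 4 fell in mutant cells.

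Before genotypes were compared, the arrays of each group were set against each other. The 2 mutant arrays in ESC medium differed across these genes in 1 direction: array 3 was higher than array 2 for 35 of the 38, with a median difference of 0.35. Over all genes array 3 was higher for 51.6%, with a median of 0.00. Array 3 was higher than array 2 by more than 0.3 for 20 of the 38 and for 3.47% of all genes. The gap was 1.40 for Egln3, 1.05 for Ddit4, 1.00 for Aldoc, 0.93 for Bnip3, 0.82 for Slc16a3 and 0.76 for Egln1, all but Aldoc and Slc16a3 genes of the HIF branch. Kdm3a (-0.32), Hif1a (-0.17) and Eno2 (0.00) were the exceptions. Among the other pairs of arrays the largest median difference was 0.20, between control arrays 3 and 1 in N2B27, where 29 of the 38 were higher on array 3. Array 3 also exceeded array 2 in the other groups, by less. In control cells it did so for 29 of the 38 in ESC medium (median 0.14) and 26 in N2B27 (0.06). In mutant cells in N2B27 it did so for 23 (0.10). Over all genes these shares were 46.7%, 49.0% and 42.3%. The gap between the 2 mutant arrays in ESC medium rests on 1 array on each side. The labels do not say whether these 2 arrays came from the same mutant line. The part of line, culture, handling or array number in this gap was not tested. All genotype values in ESC medium rest on these arrays.

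**Figure D3:**
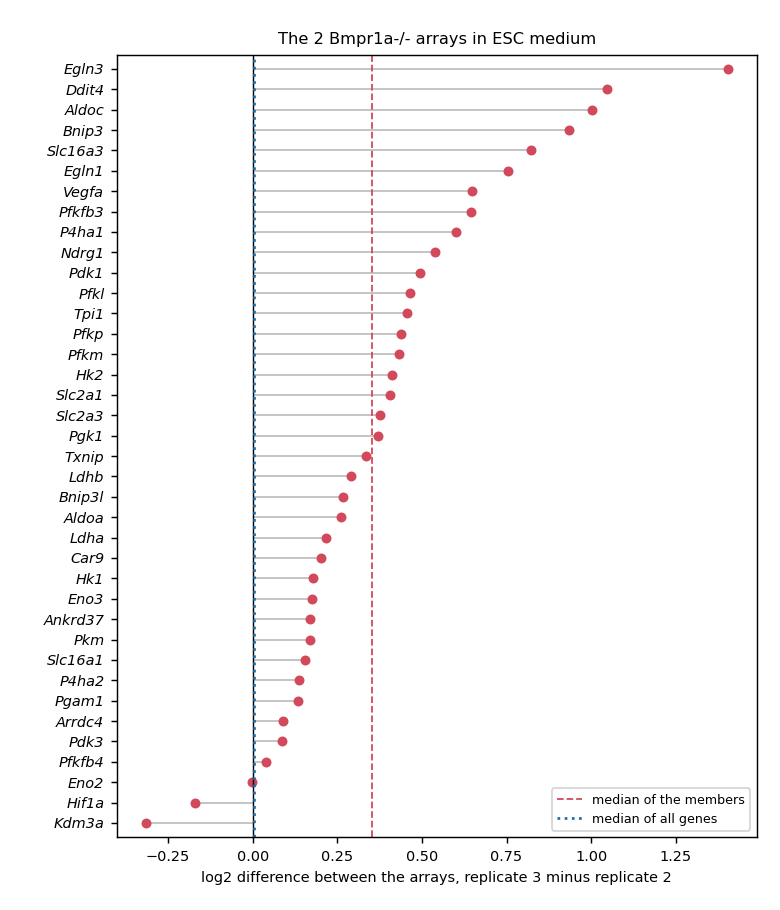
Log2 difference between the 2 Bmpr1a-/- arrays in ESC medium, array 3 minus array 2, for each of the 38 genes. The dashed line marks the median of the 38 genes (0.35) and the dotted line that of all genes (0.00), and 35 points lie to the right of 0.

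The second question was how Bmpr1a-/- cells differ from control cells in each medium. In ESC medium 2 of the 38 genes were higher and 1 was lower in mutant cells, against 3.09% of all genes higher and 3.05% lower. In N2B27 2 were higher and 4 were lower, against 4.1% of all genes higher and 1.64% lower. No gene was called in both media. The median difference of the 38 was -0.11 in ESC medium and -0.20 in N2B27, against -0.01 and -0.00 over all genes. In N2B27 the count fell to 0 without control array 3 and was 5 without the mutant array numbered 2. Calls over all genes also moved with the array left out, as given at the end. With arrays paired by number in N2B27, 11 of the 38 were called (28.9%), against 5.23% of all genes in that fit.

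**Figure D4:**
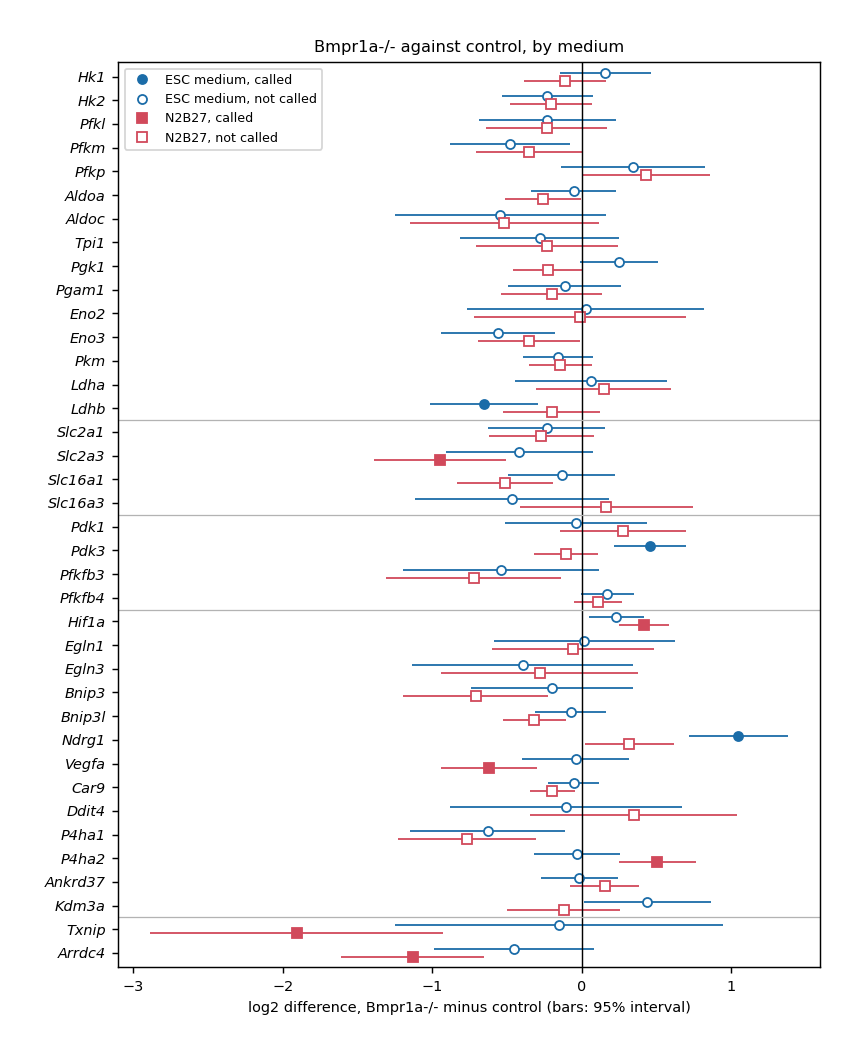
Log2 difference, Bmpr1a-/- minus control, for the 38 genes in ESC medium (blue circles) and in N2B27 (red squares), with 95% intervals from limma. Filled symbols passed an adjusted p of 0.05: 3 genes in ESC medium, led by Ndrg1 at 1.05, and 6 in N2B27, where Txnip lies at -1.91 with the widest interval.

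In ESC medium the largest difference was that of Ndrg1. It was at -0.25, -0.33 and -0.00 on the control arrays and at 0.58 and 1.12 on the mutant arrays. Both mutant arrays were above all control arrays, and Ndrg1 was 2.07-fold higher in mutant cells (1.05, SE 0.15, adjusted p = 0.00313), with the call kept in every refit. Without mutant array 2 or 3 in turn it still passed, and the gap between those arrays was 0.54. In N2B27 Ndrg1 was at 0.12, 0 and 0.16 in control and 0.31, 0.43 and 0.49 in mutant cells, again without overlap, and the difference of 0.32 was not called (SE 0.13, adjusted p = 0.219).

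Pdk3 was at -0.02, 0.08 and 0.12 in control and at 0.47 and 0.56 in mutant cells in ESC medium. It was 1.37-fold higher in mutant cells (0.46, SE 0.11, adjusted p = 0.0337). The call was lost without any one of the 5 arrays (0.41 to 0.50, adjusted p = 0.0735 to 0.211) and with each array centred on its median (adjusted p = 0.0549). Pdk3 lies on the X chromosome, where 163 of 739 genes (22.1%) were higher in mutant cells in ESC medium. The part of the chromosome in its difference was not tested. In N2B27 Pdk3 was at -0.16, -0.01 and 0.01 in control and 0, -0.38 and -0.10 in mutant cells, where the genotypes overlapped (-0.11, adjusted p = 0.646). Ldhb was 1.57-fold lower in mutant cells in ESC medium (-0.65, SE 0.16, adjusted p = 0.0436), with both mutant arrays, at -0.80 and -0.51, below all control arrays. This call was lost without control arrays 2 or 3 (-0.68 and -0.56, adjusted p = 0.0994 and 0.143) and without mutant arrays 2 or 3 (-0.51 and -0.80, adjusted p = 0.349 and 0.0888). In N2B27 Ldhb differed by -0.20 (adjusted p = 0.542).

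The other 35 genes were not called in ESC medium. P4ha1, a collagen prolyl hydroxylase, differed by -0.63 (adjusted p = 0.173), Eno3 by -0.56 (adjusted p = 0.0937; -0.73, adjusted p = 0.0147, without control array 1), Pfkm by -0.48 (adjusted p = 0.180) and Kdm3a by 0.44 (adjusted p = 0.262). The transporters lay between -0.47 and -0.13. Egln3 and Bnip3 differed by -0.39 (95% interval -1.13 to 0.34) and -0.20 (-0.74 to 0.34), and the mutant arrays lay 1.40 and 0.93 apart. Without mutant array 3 the difference of Egln3 was -1.10 (adjusted p = 0.0396). In the same medium 4 of 8 fibroblast or feeder-cell markers were lower in mutant cells. Their mean level was -0.71 to -0.62 on the mutant arrays and 0.03 to 0.21 on the control arrays. Neural progenitor markers had a mean level of -0.06 to 0.03 on the mutant and -0.24 to -0.14 on the control arrays. Of these 8 markers 2 were higher (Tubb3 and Ncam1), and the median difference of the 8 was 0.04. The mean level of 8 pluripotency markers was 1.535 to 1.536 on the mutant and 1.11 to 1.40 on the control arrays. Of these, 2 were higher in mutant cells (Zfp42 and Klf4), with a median difference of 0.25 over the 8. The values of these 3 marker lists move with genotype in ESC medium, and their part in the differences above was not tested.

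In N2B27 the arrestin-domain genes and a glucose transporter were lower in mutant cells. Txnip was at 1.09, 0.65 and 0.97 on the control arrays and at -0.88, -2.21 and 0.08 on the mutant arrays. The groups did not overlap, but the mutant arrays ranged over more than 2 log2 units, and mutant array 3 lay near the cells in ESC medium. Txnip was 3.75-fold lower (-1.91, SE 0.44, adjusted p = 0.0344). Without mutant array 2, the lowest, the difference was -1.30 (adjusted p = 0.0216), and with array weights it was -1.04 (adjusted p = 0.0449). The call was lost without control arrays 1, 2 or 3 (-1.82, -2.03 and -1.87, adjusted p = 0.0943, 0.0751 and 0.113), without mutant array 1 (-1.97, adjusted p = 0.0675) and with these 2 groups fitted alone (adjusted p = 0.125).

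Arrdc4 in N2B27 was at 0.40, 0.04 and 0.42 in control and at -1.07, -1.22 and -0.25 in mutant cells. The order of the mutant arrays was that of Txnip, with array 2 lowest and array 3 highest. Arrdc4 was 2.19-fold lower in mutant cells (-1.13, SE 0.21, adjusted p = 0.0154). The call was lost without control arrays 1 or 3 (-1.07 in both cases, adjusted p = 0.0518 and 0.0682) and with these 2 groups fitted alone (adjusted p = 0.0815), and the difference was -0.66 with array weights. Slc2a3, at 0.42, 0.40 and 0.63 in control and -0.24, -0.995 and -0.16 in mutant cells, was also lowest on mutant array 2. It was 1.93-fold lower (-0.95, SE 0.20, adjusted p = 0.0240). Without mutant array 2 the difference was -0.68 (adjusted p = 0.0145). Slc2a3 lost its call without control arrays 1, 2 or 3 (-0.98, -0.99 and -0.88, adjusted p = 0.0549, 0.0602 and 0.0931) and with these 2 groups fitted alone (adjusted p = 0.0859).

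Among HIF genes in N2B27, Vegfa was at 0.02, 0.09 and 0.24 in control and at -0.46, -0.62 and -0.43 in mutant cells. Its mutant arrays lay close together and below all others, and Vegfa was 1.54-fold lower (-0.62, SE 0.14, adjusted p = 0.0342). The call was lost without any one of the 6 arrays (-0.67 to -0.56, adjusted p = 0.0570 to 0.130). In ESC medium Vegfa was at 0.26, 0.15 and 0.35 in control and at -0.11 and 0.54 in mutant cells, where the genotypes overlapped (-0.04, adjusted p = 0.956). Hif1a moved the other way. At -0.07, 0.04 and -0.11 in control and 0.40, 0.38 and 0.33 in mutant cells, it was 1.33-fold higher in mutant cells (0.42, SE 0.07, adjusted p = 0.0116), a call lost only without control array 3 (0.38, adjusted p = 0.0560). P4ha2 was 1.42-fold higher in mutant cells (0.50, SE 0.11, adjusted p = 0.0329), at 0.22, 0 and 0.05 against -0.27, -0.62 and -0.36 in control cells. The call of P4ha2 was lost without control arrays 2 or 3 (0.40 and 0.53, adjusted p = 0.104 and 0.0858), without mutant arrays 1 or 3 (0.44 and 0.52, adjusted p = 0.0835 and 0.0607) and with these 2 groups fitted alone (adjusted p = 0.0772). Its paralog P4ha1 differed by -0.77 (SE 0.21, adjusted p = 0.0618), all mutant arrays lying below all control arrays, and passed without control array 1 (-0.97, adjusted p = 0.0296).

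**Figure D5:**
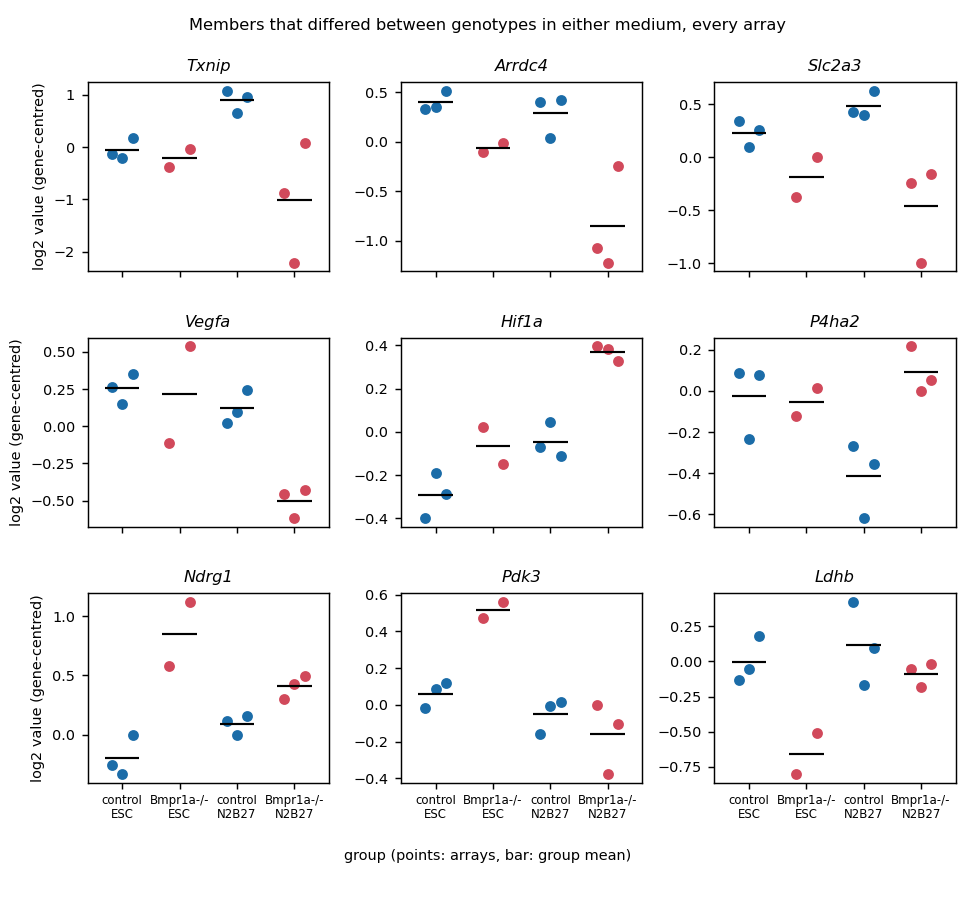
Log2 values, centred per gene, of the 9 genes called between genotypes in either medium. Each point is an array (blue control, red Bmpr1a-/-), the bars are group means, and the y axes differ between panels. Mutant array 2 in N2B27 is the lowest point for Txnip (-2.21), Arrdc4 (-1.22) and Slc2a3 (-0.995), whereas the mutant arrays of Hif1a in N2B27 lie within 0.33 to 0.40.

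No glycolytic enzyme was called between genotypes in N2B27, where 5.74% of all genes were called. At that share a count of 0 among 15 genes is not a result about enzymes. Of the 15 measured, 13 had differences below 0, against 50.4% of all genes, and this was not tested. The values ran from -0.52 for Aldoc to 0.43 for Pfkp, with a median of -0.20. Slc16a1 differed by -0.52 (SE 0.14, adjusted p = 0.0680; -0.62, adjusted p = 0.0487, without mutant array 3), Bnip3 by -0.71 (SE 0.22, adjusted p = 0.0951) and Pfkfb3 by -0.72 (SE 0.26, adjusted p = 0.154). With arrays paired by number, Slc16a1 (adjusted p = 0.0353), Bnip3 (adjusted p = 0.0370), P4ha1 (adjusted p = 0.0332) and Pfkfb3 (adjusted p = 0.0383) were called lower and Pfkp (adjusted p = 0.0363) higher in mutant cells. The 3 enzymes that changed with medium in both genotypes were not called between genotypes in N2B27. Hk2 differed by -0.20 (95% interval -0.48 to 0.07), Pfkm by -0.35 (-0.71 to 0.01) and Pfkp by 0.43 (0.00 to 0.86). Ldha differed by 0.15 (-0.31 to 0.60), Pkm by -0.14 (-0.35 to 0.06) and Pdk1 by 0.28 (-0.15 to 0.70). The mean level of 8 pluripotency markers was -0.62 to -0.32 on the mutant and -1.31 to -0.94 on the control arrays in N2B27, with 3 of the 8 higher in mutant cells. The mean level of 8 neural progenitor markers was 0.25 to 0.28 on the mutant and -0.27 to 0.02 on the control arrays. Nes (1.27, adjusted p = 0.0312) and Tubb3 (2.01, adjusted p = 0.00129) were higher in mutant cells. The median difference of these 8 markers was -0.005, so the list as a whole was not higher. The part of both marker lists in the differences above was not tested.

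The interaction asks whether the genotype difference in N2B27 differs from that in ESC medium. No gene of the 38 passed in limma, against 2.12% of all genes, and 6 had an unadjusted p under 0.05, against 13.7% of all genes. The values with their adjusted p were -1.75 for Txnip (0.253), -0.73 for Ndrg1 (0.109), -0.58 for Vegfa (0.245), -0.56 for Pdk3 (0.0860), 0.54 for P4ha2 (0.178) and -0.48 for Pgk1 (0.189). A genotype difference called in one medium and not in the other was therefore not shown to differ between media for any of the 9 genes. Without mutant array 3 in N2B27, Txnip (-2.29, adjusted p = 0.0469) and Arrdc4 (-0.98, adjusted p = 0.0309) passed, and without mutant array 1 in N2B27, Pdk3 did (-0.64, adjusted p = 0.0475).

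Pathway genes outside the 41 were counted for genotype too, against the background of 3.09% higher and 3.05% lower in ESC medium and 4.1% higher and 1.64% lower in N2B27. The share higher in mutant cells was larger on chromosome 8 (15.7% in ESC medium and 25.3% in N2B27) and on the X chromosome (22.1% and 9.74%). The part of a gene's chromosome in the differences below was not tested, and the chromosome is not given for every gene named. Of 18 other glycolysis genes, 1 was higher in mutant cells in ESC medium, Fbp2 at 0.85 (adjusted p = 0.00336), and 1 was lower in N2B27, the testis lactate dehydrogenase Ldhc at -0.46 (adjusted p = 0.0126). Of 15 HIF regulators, 0 were called in ESC medium and 1 was higher in N2B27, the coactivator Crebbp (0.30, adjusted p = 0.0334). Of 18 other transporters, Mpc1 was higher in mutant cells in both media (0.59 and 0.51, adjusted p = 0.0120 and 0.0166), and 1 was lower in each, Slc16a10 in ESC medium (-0.60, adjusted p = 0.0318) and Slc2a12 in N2B27 (-0.78, adjusted p = 0.0310). Of 32 other hypoxia-response genes, 2 were higher in ESC medium, and 3 were higher and 1 lower in N2B27. Hmox1, the haem oxygenase that also answers oxidative stress, was higher in both, at 1.32 in ESC medium (SE 0.12, adjusted p = 0.000261) and 1.05 in N2B27 (SE 0.11, adjusted p = 0.000945).

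Of 11 genes around glucose sensing, Arrb1 was lower in mutant cells in ESC medium (-0.94, adjusted p = 0.0280) and Mlx higher in N2B27 (0.38, adjusted p = 0.0110), the medium in which Txnip and Arrdc4 were lower. Of 10 pentose phosphate genes, 2 were higher in ESC medium, Tktl1 at 0.70 (adjusted p = 0.00251) and Prps1 at 0.54 (adjusted p = 0.00434), both on the X chromosome. Of 29 genes of pyruvate dehydrogenase and the citric acid cycle, 3 were higher in each medium and none lower. In ESC medium these were Me1 (0.93, adjusted p = 0.00320), Idh3g (0.74, adjusted p = 0.00118) and Idh2 (0.51, adjusted p = 0.0108), and in N2B27 Idh1 (0.56, adjusted p = 0.0187), Pcx (0.45, adjusted p = 0.0251) and Idh3g (0.43, adjusted p = 0.0125). The interaction called Ak4 (-0.84, adjusted p = 0.0293) and Prps1 (-0.50, adjusted p = 0.0489) from these lists.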

How the data were processed

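Total RNA was labelled with biotin and hybridised to 11 Affymetrix whole-transcript arrays. Per the submitters' processing notes, the authors ran RMA (Affymetrix Expression Console 1.2), which removes background, equalises arrays by quantiles and gives 1 log2 value per transcript cluster. Base 2 follows from the usual output of RMA and is not stated. The values had been centred per cluster on an undescribed baseline, which keeps differences between arrays and loses brightness. The build behind the array's design is not stated in these sources.

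Of 28815 clusters, 21780 carry 1 symbol in the platform annotation, 1605 several and 5430 none. Clusters with 1 symbol were averaged per gene, which gave 19935 genes, and 7 of the 38 genes described have several clusters. Means of the 4 groups were fitted jointly with limma 3.58.1 (lmFit and eBayes, R 4.3.3), with residual degrees of freedom of 7 and prior degrees of freedom of 3.02. Tests were two-sided, and genes were called at a Benjamini-Hochberg adjusted p under 0.05 over all genes. The fit was tested on simulated data. The genes and pathway lists were chosen with earlier results of these data known.

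Per-array values are given for genes called in a genotype comparison, for those with the largest changes with medium in control cells, and for Hif1a, Txnip, Slc2a1, Slc2a3, Ldha, Pkm, Hk2 and Pdk1. From each pathway list at most 3 called genes per direction and comparison are named. Shared array numbers were checked by the correlation of deviations from group means. It was 0.138, 0.181 and 0.131 for medium in control cells and 0.256, 0.430 and 0.158 for genotype in N2B27. Equal numbers were therefore treated as pairs in a refit of these comparisons, on the values alone. The calls reported come from the fit without pairs. The correlation was 0.215 and 0.266 for medium in mutant cells and 0.037 and 0.284 for genotype in ESC medium, where numbers were not taken as pairs. A filter on dim probes was planned and is not possible on centred values, so the least variable genes were left out instead. Other alternatives were the groups compared fitted alone, median centring, array weights, a robust prior, the replicate block, clusters not averaged and each array left out.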

Additional observations from a re-analysis of the deposited data

Results flagged for a closer look

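The arrays of Ndrg1 were separated by medium in opposite directions in the 2 genotypes, though neither difference was called. All control arrays in N2B27 lay above those in ESC medium (0.29, adjusted p = 0.157), while all mutant arrays in N2B27 lay below those in ESC medium (-0.44, adjusted p = 0.0536). The control arrays nearly touched, with array 3 in ESC medium at -0.001 and array 2 in N2B27 at 0. The share of all genes separated in opposite directions was not computed, so this pattern cannot be read as particular to Ndrg1. The interaction in limma was -0.73 (SE 0.20, adjusted p = 0.109), which missed the threshold, so a difference between genotypes in the response to the medium was not shown. Groups of 2 or 3 arrays are too small to test single arrays as outliers.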

How the results depend on the processing

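The 33 calls of single genes described above were refitted 413 times. In 338 refits the call was kept, in 75 it was lost and in 0 the direction turned. Of these calls, 14 held in every refit and 20 held in every refit other than those that left out an array. Genes not called gained a call in 88 of 2123 refits, in 0 with the direction turned.

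Counts moved by over 1.5 times as follows. With array weights, 17 of the 38 genes were called for medium in control cells (11 as reported), 6 for genotype in ESC medium (3), 10 for genotype in N2B27 (6) and 1 in the interaction (0). Over all genes these weights gave 7107 calls for medium in control cells (5205), a move within 1.5 times. They gave 7689 calls for medium in mutant cells (5018), 3138 for genotype in ESC medium (1224), 2882 for genotype in N2B27 (1144) and 1782 in the interaction (422). With the replicate block, 17 of the 38 were called for medium in control cells (44.7%, against 29.3% of all genes), 11 for genotype in N2B27, 12 for genotype in ESC medium (with 3570 genes in all) and 2 in the interaction, Ndrg1 and P4ha2 (657 genes in all). For medium in control cells and genotype in N2B27 the block changed no call of the 38 genes beyond those given with the results. In the comparisons with the mutant arrays in ESC medium only 2 pairs exist, so the numbers were not taken to pair the arrays there. The block also ended the calls of Pgk1, Ankrd37 and Arrdc4 for medium in mutant cells. With only the groups compared, genotype in N2B27 gave 2 of the 38 and 397 genes.

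With 1 array left out, the calls among the 38 ranged from 8 to 10 for medium in control cells, 9 to 16 for medium in mutant cells, 1 to 3 for genotype in ESC medium, 0 to 5 for genotype in N2B27 and 0 to 2 in the interaction. Over all genes they ranged from 3987 to 4509, 2720 to 5956, 304 to 1428, 454 to 1204 and 59 to 633 in the same order. A group left with 1 array was assumed to vary like the others. Other settings kept counts within 1.5 times. The cause of these shifts was not tested. Centred values give no signal over background, so a dim gene cannot be told from a bright one.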
